A study of Caenorhabditis elegans with 12 samples.

Results

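Small RNAs mapping to the 6 genes of the replicative DNA helicase of Caenorhabditis elegans, mcm-2 to mcm-7, were counted in extracts of whole animals and in the RNA that came down with an Argonaute protein, by immunoprecipitation (IP) through a FLAG tag. The members were chosen by identifier: WBGene00003154 (mcm-2), WBGene00003155 (mcm-3), WBGene00003156 (mcm-4), WBGene00003157 (mcm-5), WBGene00003158 (mcm-6) and WBGene00003159 (mcm-7). These names follow the running order of the identifiers, since no table at hand pairs identifiers with symbols, and every read count given for a gene rests on that order. They are 6 of the 20134 gene identifiers in the deposited count table. All 6 had reads in every library and passed the filter on low counts, as did 9536 gene identifiers in all.

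The MCM proteins form a ring of unlike subunits that is loaded around DNA at origins by the origin recognition complex, CDC-6 and CDT-1, and unwinds the duplex once CDC-45 and the GINS complex have joined. In worms the proliferating germline is the main site of DNA replication at the end of larval life. Argonautes carry small RNAs that pair with transcripts. CSR-1 is known for small RNAs against genes expressed in the germline, which it does not silence, and WAGO-1 for small RNAs of silencing pathways; both kinds are made by RNA-dependent RNA polymerases. The reads counted here are therefore small RNAs against helicase transcripts, or fragments of those transcripts, and not helicase mRNA levels.

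The 12 libraries came from L4 larvae kept at 15 °C and fell into 4 groups of 3 replicates (A, B and C). An input and an IP group came from animals of genotype 1xFLAG::CSR-1. The others, called WAGO-1 P3G, had a tagged WAGO-1, WAGO-1::FLAG, with the change P3G, and a WAGO-3 with the changes P2G and A3E. Bait, tag and genotype thus differed together between the strains, and no IP of unmodified WAGO-1 or from animals without a FLAG tag was analysed here. Titles and descriptions go against each other for most samples, and the groups follow the titles. Nothing in the labels says whether the lettered replicates were separate cultures, so p-values measure only the spread between these libraries. For the same lack of a table, markers of tissues could not be read.

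Reads counted to a gene identifier or genomic interval numbered 373033 to 533232 per CSR-1 input, 2405005 to 4908321 per CSR-1 IP, 334088 to 355028 per WAGO-1 P3G input and 7403373 to 9187525 per WAGO-1 P3G IP. The inputs held the fewest reads. A member had 13 to 171 reads in an input library and 49 to 3308 in an IP library. The scarcest value was mcm-5 in WAGO-1 P3G input C, at 13 reads (exact 95% Poisson interval 6.92 to 22.2, which covers counting error only). Input RNA was enriched for small RNA with a kit and IP RNA was not, so an IP over input value also holds that step. CSR-1 IP A stood apart from its replicates (chi-square per degree of freedom 15.5 and 13.4 against B and C, beside 2.03 between B and C), and without it the members kept the same calls in the CSR-1 IP against its input. To a lesser degree CSR-1 input A also stood apart (2.77 and 1.95 against B and C, beside 1.26 between B and C). Levels below are CPM, each count relative to all counted reads of its library, as mean ± SD over 3 libraries. Differences come from an edgeR fit of the whole table, which also scales for library composition, and the SE given after ± for a log2 value is an approximation from the F statistic.

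The genes lie apart on 4 chromosomes of the WBcel235 assembly (ce11). These are II:12001517-12006625 for mcm-2, V:15056719-15059599 for mcm-3, I:2318291-2321817 for mcm-4, III:4288264-4291266 for mcm-5, III:9794367-9798644 for mcm-6 and V:4347166-4349768 for mcm-7. Their spans overlap those of other coding genes by 8 bp at mcm-2 (Y17G7B.23), 73 bp at mcm-3 (C25D7.16), 15 bp at mcm-4 (ekl-7) and 18 bp at mcm-7 (F32D1.3). The mcm-6 span shares 1278 bp with srxa-10, a chemoreceptor-family gene, and the mcm-5 span shares none. Since the strand setting of the count is not known, reads on a gene and on an overlapping partner may not be fully separated, and mcm-6 is the member this could touch most. Of the genomic intervals in the table only 1 overlapped a member, in mcm-4, and it held 0 reads in the 12 libraries.

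Before any IP, mcm-7 had the most reads per length of the 6 genes. Per kb of gene span, introns included, the CSR-1 inputs held 82.1 ± 10.2 CPM for mcm-7, 65.4 ± 6.72 for mcm-2 and 40.5 ± 6.61 for mcm-3. The other levels there were 29.2 ± 2.49 for mcm-4, 25.01 ± 2.94 for mcm-5 and 24.0 ± 2.22 CPM per kb for mcm-6. In that order mcm-7 and mcm-2 overlapped between libraries, as did mcm-4 with mcm-5 and mcm-5 with mcm-6. The WAGO-1 P3G inputs held 83.5 ± 5.95 CPM per kb for mcm-7, 39.8 ± 1.31 for mcm-3, 34.4 ± 3.01 for mcm-2, 24.2 ± 3.37 for mcm-4, 15.3 ± 2.78 for mcm-5 and 15.2 ± 3.38 for mcm-6, where only mcm-5 and mcm-6 overlapped as neighbours. The highest member stood above the lowest by a ratio of 3.42 for the CSR-1 inputs and 5.51 for the WAGO-1 P3G inputs. The lowest was mcm-6 in both, and in the CSR-1 IPs below. Its span includes the 1278 bp shared with srxa-10, and the effect of that overlap on its place was not tested.

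The IPs changed that order in unlike ways. In the CSR-1 IPs mcm-7 stood alone at 274 ± 13.8 CPM per kb, 3.46 times the next member. The other members lay close together, from mcm-3 at 79.2 ± 2.80 through mcm-5 at 75.7 ± 7.35, mcm-2 at 67.7 ± 2.297 and mcm-4 at 64.5 ± 3.40 to mcm-6 at 61.5 ± 7.64 CPM per kb. Among these, the libraries of neighbours in the order overlapped except those of mcm-5 and mcm-2. The WAGO-1 P3G IPs were led by mcm-2 at 38.5 ± 0.821 CPM per kb, followed by mcm-3 at 16.0 ± 0.819, mcm-7 at 15.8 ± 1.03, mcm-4 at 9.35 ± 0.174, mcm-6 at 3.32 ± 0.0895 and mcm-5 at 2.32 ± 0.330. Only mcm-3 and mcm-7 overlapped there as neighbours, and the highest member exceeded the lowest by a ratio of 16.6.

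**Figure D1:**
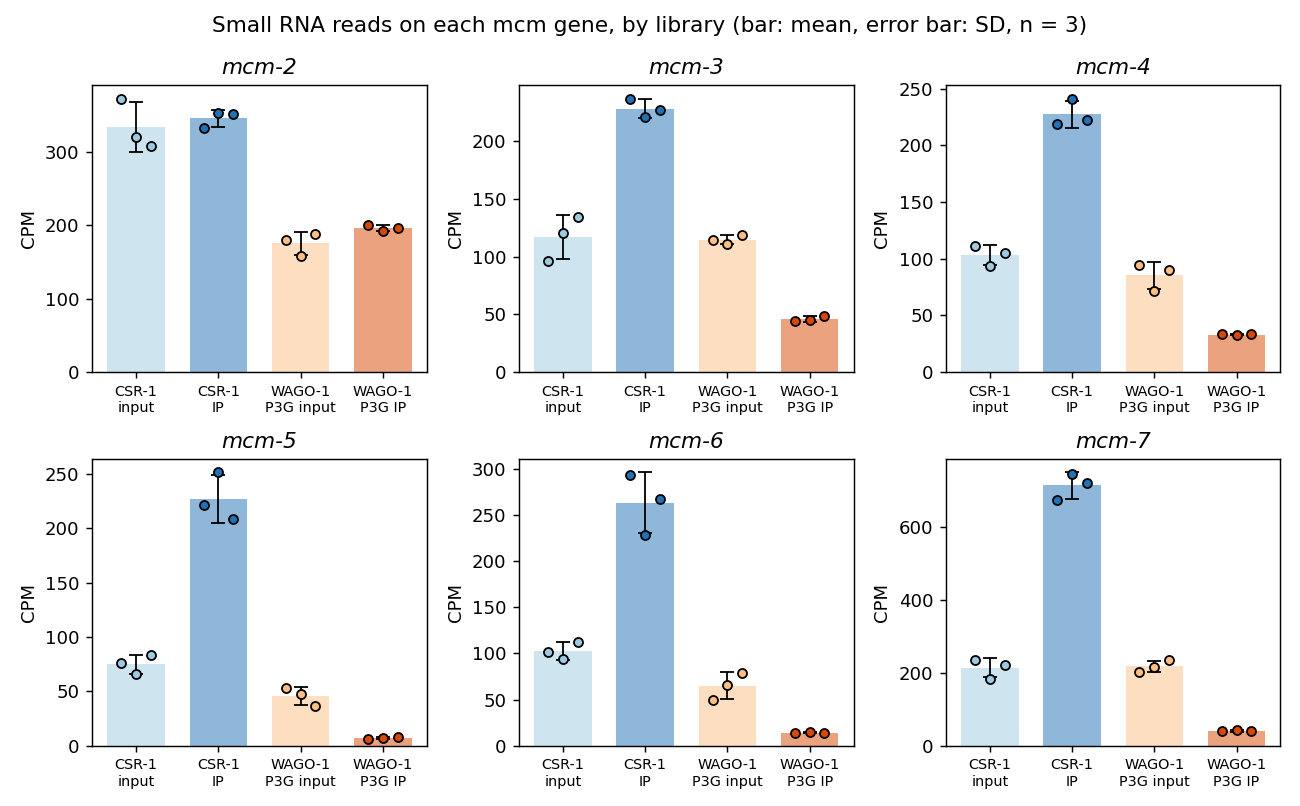
Level of small RNA reads on each mcm gene in CPM (vertical axis, from 0, with its own scale for each gene) in the 4 groups; points are libraries A, B and C from left to right, bars are means and error bars the SD of 3 libraries. For mcm-3 to mcm-7 the CSR-1 IP bar is the tallest and the WAGO-1 P3G IP bar the shortest, while for mcm-2 each IP lies close to its own input.

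The CSR-1 IPs were set against their inputs to ask which small RNAs were recovered with CSR-1. All 6 members were called higher in the IP at an edgeR adjusted p under 0.05, where 42% of tested gene identifiers and 37.5% of all tested features were called higher. The median log2 difference of the members was 1.68, beside 0.26 for gene identifiers and -0.08 for all features. The 5 members from mcm-3 to mcm-7 had IP libraries all above the input libraries, a separation upward seen in 36% of gene identifiers (32.1% of all features). The exception in size was mcm-2.

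Among the subunits that form the catalytic core in other eukaryotes, mcm-7 had 235, 184 and 223 CPM in CSR-1 inputs A, B and C and 674, 745 and 721 CPM in the IPs. Every IP library was thus well above every input, and the fitted rise was 4.49-fold (edgeR adjusted p = 1.33e-14), a log2 difference of 2.17 with an SE of 0.11. MCM-7 is the subunit that CUL-2 with LRR-1 ubiquitylates in worm embryos when the helicase is unloaded. For mcm-6, whose human product binds CDT1, inputs had 101.3, 93.8 and 113 CPM and IPs 294, 229 and 268 CPM. The groups did not overlap, the IP libraries of mcm-6 were the most scattered of the 6 members (CV 12.4%), and the rise was log2 1.80 ± 0.16. For mcm-4, known in worms also as lin-6 and needed for DNA replication after hatching, inputs had 111, 93.8 and 105 CPM and IPs 219, 241 and 222 CPM, a rise of log2 1.56 ± 0.13.

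Of the other subunits, mcm-5 rose most, from 76.6, 65.6 and 83.1 CPM in the inputs to 222, 252 and 208 CPM in the IPs (log2 2.03 ± 0.15, edgeR adjusted p = 1.76e-11). MCM5 pairs with MCM2 at the gate through which the yeast ring opens. The mcm-3 libraries had 96.3, 120.02 and 134 CPM in the inputs and 237, 221 and 227 CPM in the IPs, again without overlap (log2 1.39 ± 0.14). MCM3 is the subunit by which the yeast ring first docks onto the origin complex.

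For mcm-2, whose product also binds histones in yeast and mammals, the CSR-1 inputs had 373, 321 and 308 CPM and the IPs 333, 354 and 352 CPM. These groups overlapped, and the ratio of mean CPM was 1.04. The fit, with its composition scaling, gave log2 0.47 ± 0.10 (edgeR adjusted p = 2.68e-04). That call ended with counted reads alone as the scale (log2 0.05, adjusted p = 0.653 from edgeR) and turned with upper-quartile factors (log2 -0.15, adjusted p = 0.166), while the other 5 members stayed called higher in all 24 alternatives, at log2 values from 0.72 to 1.86 for mcm-3 and 1.49 to 2.62 for mcm-7. It also ended in a fit of the CSR-1 libraries alone (log2 0.08, adjusted p = 0.593 from edgeR), without CSR-1 IP C (log2 0.24) and without WAGO-1 P3G IP A, B or C (log2 0.15, 0.14 and 0.15). The WAGO-1 P3G IPs are not part of this comparison, but each fit with a library left out was filtered and scaled anew. Without an IP library 8473 to 8505 features were tested, in place of 10822. The approximate 95% interval for mcm-2, 0.26 to 0.68, lay below that of mcm-3, 1.10 to 1.68, the lowest of the other members.

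The WAGO-1 P3G IPs were compared with their inputs in the same way. Here 5 of the 6 members were called lower, as were 37% of gene identifiers and 33.4% of all features, and mcm-2 alone was called higher, as were 31.3% of gene identifiers and 34.2% of all features. The median of the members was log2 -1.19, beside -0.12 for gene identifiers and 0.12 for all features. In CPM the groups separated downward for those 5 members (51% of gene identifiers, 46.3% of all features) and upward for mcm-2 (23.3% and 25.6%).

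The mcm-5 reads fell from 53.0, 47.9 and 36.6 CPM in inputs A, B and C to 5.88, 7.16 and 7.84 CPM in the IPs. Every IP library was below every input, and the fitted fall was 4.32-fold (log2 -2.11 ± 0.25, edgeR adjusted p = 7.34e-08). For mcm-7 the inputs had 203, 216 and 234 CPM and the IPs 39.9, 44.3 and 39.5 CPM (log2 -1.80 ± 0.12, edgeR adjusted p = 7.94e-12). For mcm-6 the inputs had 50.0, 65.9 and 78.9 CPM and the IPs 14.2, 14.6 and 13.8 CPM (log2 -1.60 ± 0.23). These 3 genes were called lower in all 24 alternatives each, with log2 values from -2.71 to -1.36 for mcm-5, -2.55 to -1.05 for mcm-7 and -3.39 to -0.85 for mcm-6. The fall of mcm-5 was the largest except with all libraries thinned to the smallest, where mcm-6 was at -3.39, mcm-7 at -2.55 and mcm-5 at -2.18.

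The remaining members that fell were less clear. The mcm-3 libraries had 115, 111 and 118 CPM in the inputs and 44.4, 45.0 and 48.8 CPM in the IPs (log2 -0.72 ± 0.16, edgeR adjusted p = 3.62e-04). The mcm-4 libraries had 94.1, 71.8 and 90.1 CPM in the inputs and 33.4, 32.3 and 33.3 CPM in the IPs (log2 -0.78 ± 0.16, edgeR adjusted p = 1.62e-04). Their CPM did not overlap, yet as RPM over all reads, those on no feature included, mcm-3 was at 30.6 ± 0.627 in the inputs and 31.3 ± 1.70 in the IPs, and mcm-4 at 22.8 ± 3.12 and 22.4 ± 0.513. On that scale the fit gave log2 0.03 and -0.02 (adjusted p = 0.845 and 0.902 from edgeR). The mcm-3 call also ended without WAGO-1 P3G input A, B or C (log2 -0.41, -0.42 and -0.39), and the mcm-4 call without input A or C (log2 -0.39 and -0.43) and with all libraries thinned to the smallest (log2 -0.47, adjusted p = 0.105 from edgeR). Without an input library the filter and scaling also changed, with 12904 to 13013 features tested. Leaving out CSR-1 input A, B or C, outside this comparison, put mcm-3 at log2 -0.41, -0.39 and -0.41, still called lower. How much of the shift came from the library left out was not tested. With no filter on low counts neither was called (log2 -0.17 for mcm-3 and -0.23 for mcm-4).

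For mcm-2 the WAGO-1 P3G inputs had 179, 159 and 189 CPM and the IPs 201, 192 and 197 CPM. The IP libraries lay just above the inputs, at a ratio of mean CPM of 1.12, and the fit gave a rise of log2 0.76 ± 0.12 (edgeR adjusted p = 4.91e-06). This call ended with counted reads alone as the scale (log2 0.16, adjusted p = 0.239), and the rise was log2 1.51 with all reads as the scale. The approximate 95% interval of mcm-2, 0.51 to 1.00, lay above those of all other members, of which the highest upper bound was -0.39 for mcm-3.

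**Figure D2:**
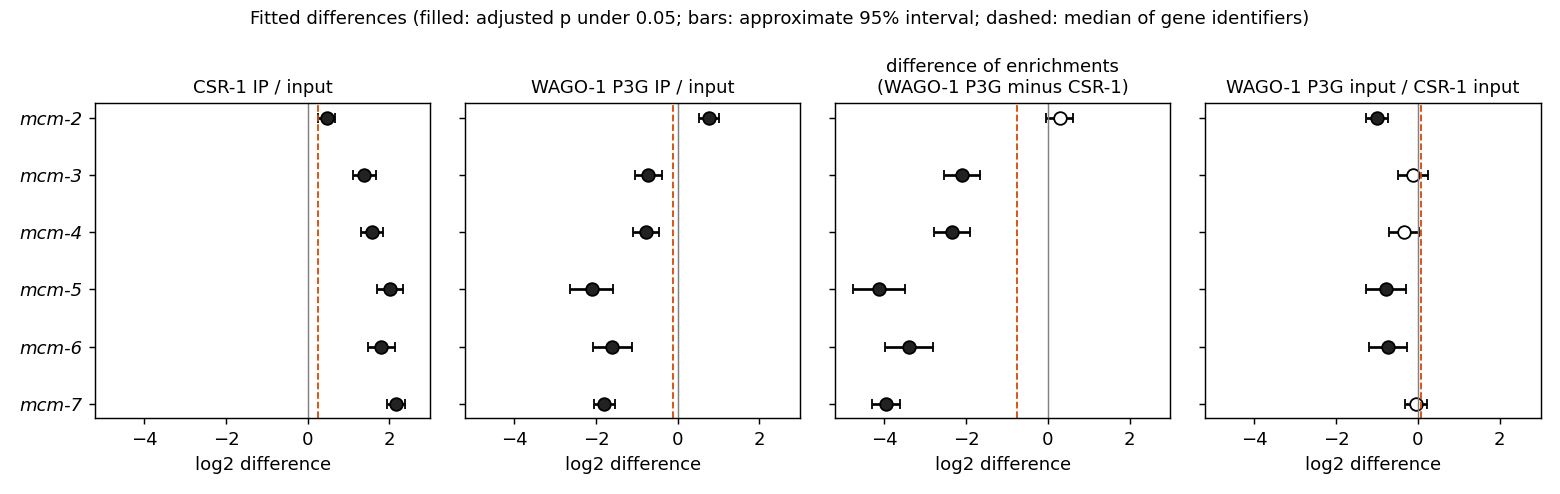
Fitted log2 differences (horizontal axis) for the 6 genes in 4 comparisons; filled points passed an edgeR adjusted p of 0.05, open points did not, bars are approximate 95% intervals, the grey line is 0 and the dashed line the median of all tested gene identifiers. In the CSR-1 panel all points lie above 0, in the WAGO-1 P3G panel only mcm-2 does, and in the difference panel mcm-3 to mcm-7 lie between -4.14 and -2.11.

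Whether the baits differed for these genes was tested as the difference of their log2 enrichments, each over its own input. The enrichment was lower with WAGO-1 P3G than with CSR-1 for 5 of the 6 members, a call made for 44.5% of gene identifiers and 40% of all features, and higher for 0 (28.2% and 33.9%). The members' median was log2 -2.87, against -0.75 for gene identifiers and -0.34 for all features. The difference was log2 -4.14 ± 0.31 for mcm-5, -3.97 ± 0.17 for mcm-7 and -3.40 ± 0.29 for mcm-6, which placed these genes above only 2.68%, 3.61% and 9.12% of gene identifiers. It was -2.34 ± 0.21 for mcm-4 and -2.11 ± 0.21 for mcm-3, above 25.6% and 29.5% of gene identifiers. All 5 calls held in each of 23 alternatives, in which the values ran from -4.32 to -3.40 for mcm-5, -4.15 to -3.23 for mcm-7, -4.52 to -2.65 for mcm-6, -2.52 to -1.26 for mcm-4 and -2.28 to -1.36 for mcm-3. The lowest mcm-6 value came from thinning, which put it below mcm-5 (-3.58).

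For mcm-2 the difference was log2 0.29 ± 0.16 with an approximate 95% interval of -0.04 to 0.61 (edgeR adjusted p = 0.101), so it did not pass the test. In 17 of 23 alternatives it did pass, always as higher with WAGO-1 P3G, with values over all alternatives from log2 0.11 to 1.10. Among them were the fits without CSR-1 input B or C, without any CSR-1 IP or any WAGO-1 P3G IP, and without WAGO-1 P3G input A or C (log2 0.43 to 0.72). The highest upper bound among the other members was -1.66, for mcm-3.

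Set side by side, the enrichments of each bait over its own inputs gave joint calls, which were not themselves tested. The test of their difference is given above. The call of higher with CSR-1 and lower with WAGO-1 P3G was shared by 5 of the 6 members and made for 21.4% of gene identifiers (18.9% of all features). Higher in both was the call for mcm-2 and for 5.07% of gene identifiers (4.48% of all features). With counted reads alone as the scale neither call of mcm-2 stood (log2 0.05 for CSR-1 and 0.16 for WAGO-1 P3G). In the CSR-1 comparison mcm-7, mcm-5 and mcm-6 were above 92.8%, 90.6% and 85.2% of gene identifiers, mcm-4 and mcm-3 above 78.6% and 74%, and mcm-2 above 53.3%. In the WAGO-1 P3G comparison the same genes, in that order, were above 15%, 10.8%, 18.7%, 36%, 37.3% and 68.1%.

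**Figure D3:**
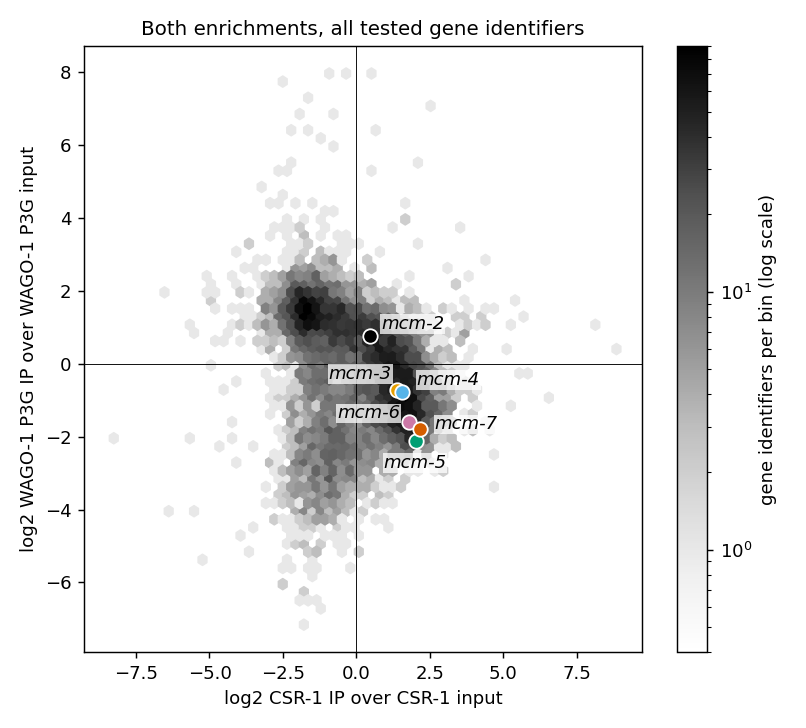
Log2 CSR-1 IP over input (horizontal axis) against log2 WAGO-1 P3G IP over input (vertical axis) for the 9536 tested gene identifiers, drawn as bins shaded by number on a log scale, with the 6 helicase genes as coloured points. The members run down a dense band right of 0, from mcm-2 above 0 on the vertical axis to mcm-5 at the bottom.

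A direct comparison of the IPs, which uses the libraries already described, gave lower levels with WAGO-1 P3G for all 6 members (48.6% of gene identifiers and 44.6% of all features were called lower). Mean CPM was lower by a ratio of 32.65 for mcm-5, 18.55 for mcm-6, 17.3 for mcm-7, 6.895 for mcm-4, 4.95 for mcm-3 and 1.76 for mcm-2. The fitted differences ran from log2 -4.92 ± 0.14 for mcm-5 to -0.72 ± 0.09 for mcm-2. With upper-quartile factors that of mcm-2 turned to 0.13 (adjusted p = 0.132 from edgeR).

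The strains differed for some members before any IP. In the inputs 3 members were lower in the WAGO-1 P3G strain, against 15.7% of gene identifiers and 18.8% of all features, and 0 were higher (21.1% and 19.6%). The largest difference was in mcm-2, at 334 ± 34.3 CPM in the CSR-1 inputs, against 176 ± 15.4 CPM in the WAGO-1 P3G inputs. Its libraries did not overlap, as for mcm-5 and mcm-6, a separation downward seen in 18.5% of gene identifiers and 21.7% of all features. The fall of mcm-2, log2 -1.01 ± 0.13 (n = 3 and 3, edgeR adjusted p = 6.27e-07), held in all 23 alternatives. As these are extracts of whole animals, fewer cells with such small RNAs and less small RNA per cell cannot be told apart.

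Smaller falls were called for mcm-5, from 75.1 ± 8.83 to 45.8 ± 8.36 CPM (log2 -0.79 ± 0.24, edgeR adjusted p = 0.0102), and mcm-6, from 103 ± 9.47 to 64.9 ± 14.5 CPM (log2 -0.73 ± 0.23, adjusted p = 0.0134). The call of mcm-5 ended without WAGO-1 P3G input C (log2 -0.67, adjusted p = 0.0592), with no filter on low counts (log2 -0.77, adjusted p = 0.0758) and with all libraries thinned to the smallest (log2 -0.62, adjusted p = 0.0665), and that of mcm-6 without input A (log2 -0.61, adjusted p = 0.0770). No difference passed for mcm-4 (103 ± 8.78 and 85.4 ± 11.9 CPM; approximate 95% interval of log2 -0.71 to 0.02), mcm-3 (117 ± 19.1 and 115 ± 3.78 CPM; -0.49 to 0.26) or mcm-7 (214 ± 26.6 and 217 ± 15.5 CPM; -0.32 to 0.23). These values are per counted read. Reads on no feature were a larger part of the WAGO-1 P3G inputs (72.8% to 74.1%) than of the CSR-1 inputs (53.8% to 59.2%), and with all reads as the scale all 6 members were called lower, as were 38.9% of all features tested on that scale, whose median was log2 -0.59.

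**Figure D4:**
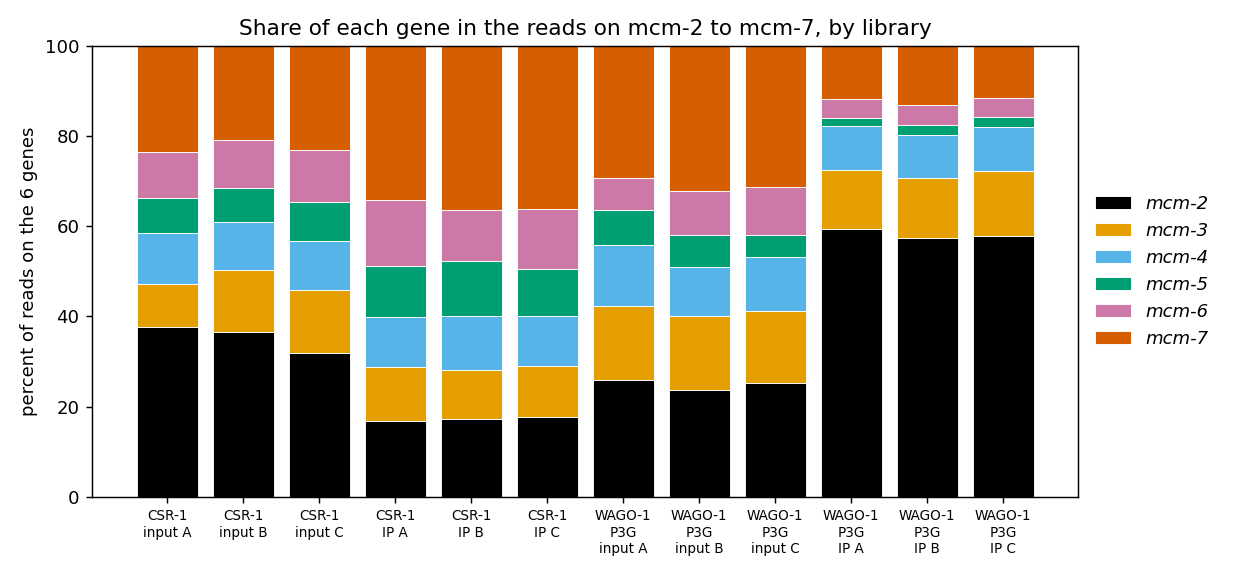
Share of each gene in the reads on the 6 helicase genes (vertical axis, percent, stacked to 100) in each of the 12 libraries. The black segment, mcm-2, is near 17% in the CSR-1 IPs and near 58% in the WAGO-1 P3G IPs, and the segment of mcm-7 moves the other way. As segments add to 100, one can grow because others shrink.

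Shares of the reads on the 6 genes do not depend on how libraries are scaled. Together the 6 genes took 945 ± 60.2 CPM in the CSR-1 inputs, 2005 ± 32.3 in the CSR-1 IPs, 704 ± 38.8 in the WAGO-1 P3G inputs and 338 ± 2.06 in the WAGO-1 P3G IPs. Of these reads mcm-2 held 35.4% ± 2.99 for the CSR-1 inputs, 17.25% ± 0.403 for the CSR-1 IPs, but 24.9% ± 1.14 in the WAGO-1 P3G inputs and 58.2% ± 1.04 in the WAGO-1 P3G IPs (SD, n = 3 each). The share of mcm-7 was 22.5% ± 1.42, 35.55% ± 1.29, 30.9% ± 1.495 and 12.2% ± 0.863 in the same order of groups. That of mcm-5 was 11.3% ± 0.950 in the CSR-1 IPs and 2.06% ± 0.291 in the WAGO-1 P3G IPs.

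The contrast between mcm-2 and mcm-7, a pair picked after their values were seen, can be read within each library. Reads on mcm-2 per read on mcm-7 were 1.59, 1.75 and 1.39 in CSR-1 inputs A, B and C, against 0.493, 0.475 and 0.488 in the CSR-1 IPs. They were 0.884, 0.736 and 0.807 in the WAGO-1 P3G inputs and 5.04, 4.35 and 4.97 in the WAGO-1 P3G IPs. The 4 groups did not overlap, and the inputs lay between the IPs.

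**Figure D5:**
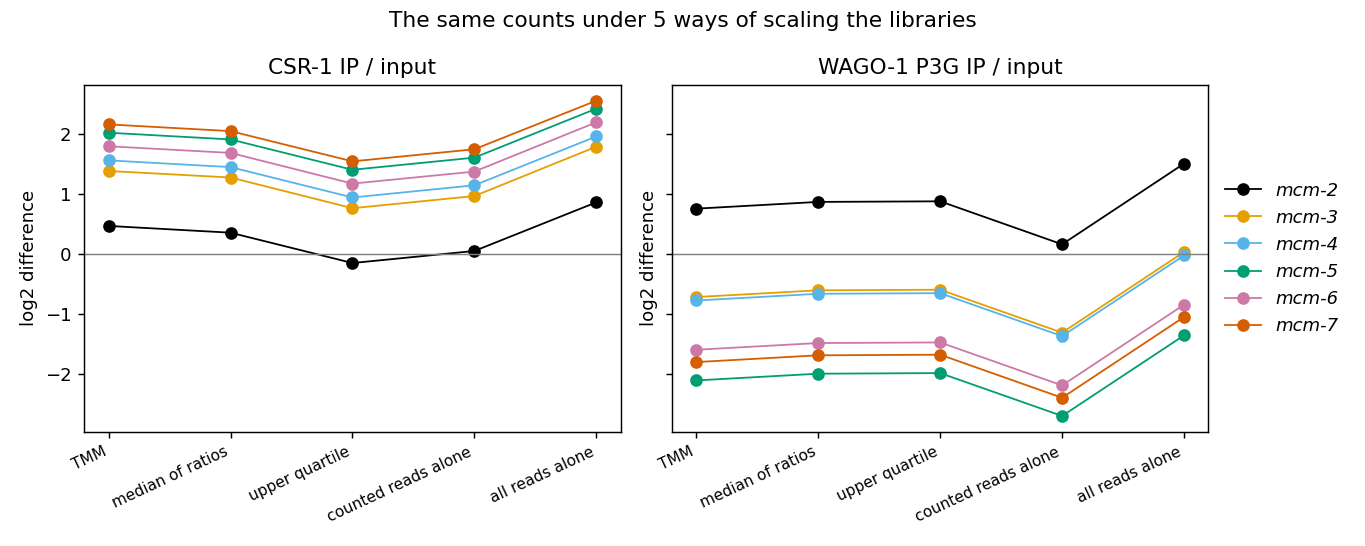
Log2 IP over input (vertical axis) of the 6 genes under 5 scalings of the libraries (horizontal axis), for CSR-1 on the left and WAGO-1 P3G on the right. The lines run nearly parallel by construction, as a change of scaling shifts all genes of a comparison by nearly the same amount. With upper-quartile factors mcm-2 crosses 0 on the left (-0.15). With all reads alone mcm-3 and mcm-4 meet 0 on the right (0.03 and -0.02).

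Other genes of DNA replication could be looked at only through the genomic intervals. Of 52 listed genes, 50 were found in RefSeq and 0 were paired with an identifier. They overlapped 83 intervals, of which 2 were tested. The interval I:3223295-3223537 in cdt-1, the loading factor of the helicase, was called only between the IPs (log2 -2.12 ± 0.25, edgeR adjusted p = 1.25e-08), lower with WAGO-1 P3G. It held 17 reads in the CSR-1 inputs, 164 in the CSR-1 IPs, 8 in the WAGO-1 P3G inputs and 82 in the WAGO-1 P3G IPs. The interval II:11877467-11877540 in top-2, a topoisomerase that relieves strain in copied DNA, held 10, 148, 3 and 8 reads in the same groups, and differed between the enrichments by log2 -3.75 ± 1.24 (edgeR adjusted p = 0.00911). It was also called higher in the CSR-1 IPs than in their inputs (log2 1.29 ± 0.44, edgeR adjusted p = 0.0111). It was called lower in the WAGO-1 P3G IPs than in their inputs (log2 -2.46 ± 1.08, edgeR adjusted p = 0.047) and than in the CSR-1 IPs (log2 -5.21 ± 0.36, edgeR adjusted p = 4.46e-13). Of all features, 40%, 37.5%, 33.4% and 44.6% had these calls, in the order given. Reads on such an interval need not come from the gene it lies in.

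By level over the 12 libraries the gene identifiers nearest to the members' mean profile, on the log2(CPM + 1) scale, were WBGene00018794 (Euclidean distance 0.426) and WBGene00003798 (0.440), both unnamed here. Closer to that mean than any member, they compare with distances of 1.13 for mcm-4, 1.23 for mcm-3, 2.51 for mcm-6, 3.12 for mcm-7, 4.51 for mcm-5 and 5.12 for mcm-2. The levels of WBGene00018794 were 122 ± 12.5 and 308 ± 16.9 CPM in the CSR-1 inputs and IPs, and 99.1 ± 3.62 and 32.1 ± 0.949 CPM in the WAGO-1 P3G inputs and IPs. Among the members, whose own values make up that mean, mcm-4 and mcm-3 thus lay nearest to it and mcm-2 and mcm-5 farthest. The distance takes in overall level as well as the pattern across groups.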

How the data were processed

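The table holds raw counts per gene identifier and genomic interval, deposited by the authors without normalization. HTSeq 0.11.2, cutadapt 2.3, Bowtie 1.2.3, SAMtools 1.9 and the build ce11 are listed in the submitters' processing notes, with no role or order; the sources used here do not give strand or alignment settings, and the entry for reads without a unique alignment is 0 in every library. The 5 summary entries were left out of tests. CPM was computed from counted reads. edgeR 4.0.16 in R 4.3.3 was fitted on the 12 libraries and 10822 features (filterByExpr by group, TMM factors, quasi-likelihood F test, 8 residual degrees of freedom, Benjamini-Hochberg over all features, threshold 0.05), for 5 comparisons. The SE is the absolute log2 difference over the square root of F, and 95% intervals use it. The procedure was tested on simulated data. Few features were changed there, in balanced directions, so that test did not cover the choice of library scaling. Members, lists and tests were chosen with earlier results of these data known. All members are described by rule; 2 identifiers were named by distance. Coordinates are those of RefSeq on WBcel235. DESeq2 1.42.0 was an alternative. Same-letter input and IP libraries correlated, as deviations from their group means over 3660 features with at least 10 reads in every library, at 0.487, 0.400 and 0.0676 for CSR-1 and 0.0640, 5.15e-04 and -0.0462 for WAGO-1 P3G, so the letters were not taken as pairs. In each group all replicate pairs differed beyond sampling noise (smallest chi-square per degree of freedom 1.06, p = 0.00461).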

Additional observations from a re-analysis of the deposited data

Results flagged for a closer look

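For 5 members the IP over input effect differed between the strains by the test of the difference itself (edgeR, n = 3 per group, adjusted p under 0.05). All 5 were lower with WAGO-1 P3G, as were 40% of all tested features, and 33.9% were higher, so such a call was common. The WAGO-1 P3G enrichment minus the CSR-1 enrichment was log2 -2.11 for mcm-3, -2.34 for mcm-4, -4.14 for mcm-5, -3.40 for mcm-6 and -3.97 for mcm-7. The strains' inputs also differed for mcm-5 and mcm-6, lower with WAGO-1 P3G by log2 -0.79 and -0.73, and the IPs differed by more, log2 -4.92 and -4.13. Single outlying libraries were not tested in groups of 3.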

How the results depend on the processing

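Over 702 combinations of member, comparison and alternative, 653 kept direction and side of the threshold, 20 lost the call, 20 gained it and 9 turned. With each library left out in turn the count of members called ran from 5 to 6 higher for CSR-1, stayed at 1 higher and ran from 3 to 5 lower for WAGO-1 P3G (3 without WAGO-1 P3G input A or C), ran from 0 to 1 higher for the difference, and from 2 to 3 lower for the inputs. Those fits were filtered and scaled anew, with 8473 to 13013 features tested in place of 10822, so their shifts are not those of the library left out alone. Of all features in those fits, 31.5% to 41.4% were higher for CSR-1. For WAGO-1 P3G 33.5% to 38.7% were higher and 21.4% to 37.7% lower (22.2% and 21.4% without its input A or C). For the difference 30.3% to 36.4% were higher, and for the inputs 14.2% to 23.5% were lower. For the difference 1 member, mcm-2, was called higher with median-of-ratios factors, all reads as the scale, upper-quartile factors, DESeq2, at least 10 CPM in 3 libraries, gene identifiers alone and thinning to the smallest library, where 32.2% to 41.5% of features were. In WAGO-1 P3G 0 members were higher with counted reads alone (17.6% of all features), 3 were lower with all reads as the scale (19.4%) or with no filter (5.68%), and 4 when thinned (35.1%). In the inputs 6 were lower with all reads as the scale (38.9%), and 2 with no filter (3.77%) or when thinned (23.6%). Values that turned were mcm-2 in CSR-1 (-0.15 with upper-quartile factors, -0.20 when thinned) and between the IPs (0.13 in both), mcm-3 in WAGO-1 P3G (0.0340 with all reads), and mcm-7 between the inputs (0.0232 with median-of-ratios factors, 0.0383 with counted reads alone, 0.0658 with upper-quartile factors, 0.0282 with DESeq2). The cause was not tested. Thinning, which leaves fewer reads and 6576 features, gave 4766, 4325, 4826 and 5237 calls for CSR-1, WAGO-1 P3G, the difference and the IPs, in place of 7698, 7306, 7997 and 9403, and with no filter the IPs gave 15728. Scaling moved the median of all features in CSR-1 from -0.08 to between -0.71 and 0.43, and in WAGO-1 P3G from 0.12 to between -0.48 and 0.945. The share of calls that were higher moved from 52.7% to between 37.9% and 62.8%, and from 50.6% to between 28.8% and 73.6%. For the inputs it moved from 51.0% to 17.98% with all reads as the scale, for the difference from 45.9% to 57.5% and for the IPs from 48.7% to 61.1% with upper-quartile factors. With a replicate block by letter across all libraries the calls numbered 7718 for CSR-1 and 7345 for WAGO-1 P3G, and by letter within strain 7861 and 7537; neither block changed the call of a member. The letters were not shown to pair samples: CSR-1 IP C correlated best with input B (0.281). The low input depth limits IP over input values.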

Other observations

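No tested interval lay within 2000 bp of a member. The interval with the most reads there, picked after its values were seen, was I:2322674-2323032, 857 bp beyond the span of mcm-4. It held 5 reads in the CSR-1 inputs, 53 in the CSR-1 IPs, 4 in the WAGO-1 P3G inputs and 132 in the WAGO-1 P3G IPs, or 3.72 ± 3.71, 4.72 ± 1.03, 3.84 ± 3.33 and 5.33 ± 0.680 CPM (SD, n = 3 each). Its groups overlapped in each strain, but with only 0 to 3 reads per input library that overlap cannot be set against mcm-4.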
